A study of Rattus norvegicus with 6 samples.

Results

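The genes described are 9 members of the rat cytochrome P450 subfamilies Cyp2a (Cyp2a1 and Cyp2a2), Cyp2d (Cyp2d1, Cyp2d2, Cyp2d3, Cyp2d4 and Cyp2d5) and Cyp2j (Cyp2j3 and Cyp2j4). They were chosen by name, as liver P450s that are not known as main targets of the pregnane X receptor (PXR). Their probes were found through the transcript accession that the array design gives, which matched 11 of 30367 different probes, printed in 28 spots per array. All 9 genes were among the 16389 genes and features tested. Livers came from male Wistar Hannover rats bought at 4 weeks of age and held for 1 week before dosing. The PCN group (3 biological replicates) was given pregnenolone-16α-carbonitrile at 100 mg/kg/day by gavage for 7 days, and the control group (3 biological replicates) the corn oil vehicle over the same time. PCN is a synthetic steroid that activates rodent PXR. Liver RNA of each replicate was labelled with Cy3 and hybridised to its own Agilent 1-colour array, and 1 dose and 1 time were sampled in young males.

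Cytochrome P450s are heme enzymes of the endoplasmic reticulum that insert oxygen into drugs, steroids and fatty acids, with electrons passed on by P450 reductase and cytochrome b5. Rat Cyp2a enzymes hydroxylate testosterone at defined positions, and in adult rats Cyp2a1 transcript is female-biased and Cyp2a2 transcript male-biased under growth hormone control. Rat Cyp2d enzymes oxidise basic drugs such as debrisoquine and bufuralol, the substrates known from human CYP2D6, and the subfamily is known for responding little to classic inducers. Cyp2j enzymes turn arachidonic acid into epoxides that soluble epoxide hydrolase then opens.

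The 75th percentile of the processed signal lay between 488 and 627 on the PCN arrays and between 633 and 758 on the control arrays, and 0 spots were saturated. All 10 hepatocyte markers were well above background on all 6 arrays. Their summed signal spanned 2267 to 2946 times the array's 75th percentile on PCN arrays and 2524 to 2684 times on control arrays. Over genes, 2 arrays correlated at 0.990 to 0.993 within a group and 0.975 to 0.981 between groups. Since 1 slide held the PCN arrays and another the control arrays, a slide effect cannot be told apart from that of PCN. All 11 probes of the 9 genes were well above background on every array, so each gene was tested through both groups.

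The Cyp2a genes were the only members that passed the test, and both rose with PCN. Cyp2a2 rose 2.07-fold and Cyp2a1 1.67-fold, while the 5 Cyp2d genes and the 2 Cyp2j genes gave fold changes between 0.915 and 1.27 and did not pass. Thus 2 of 9 members rose and 0 fell, where 4.37% of all tested genes rose, 15.5% fell and 19.9% passed in either direction. The threshold was a Benjamini-Hochberg adjusted p under 0.05 from limma over all tested genes. The median log2 fold change was 0.29 over the 9 members and −0.06 over all tested genes. The members' median was 0.04 with spike-in scaling and 0.50 with median scaling. The change was above 0 in 7 of 9 members, against 42.4% of all tested genes. These small changes depended on the scaling: Cyp2d4 and Cyp2j3 lay above 0 with median scaling, and Cyp2d2 and Cyp2d3 below 0 with scaling to spike-in controls. Among 55 tested genes whose symbol begins with Cyp and a family number, members included, 23.6% rose.

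**Figure D1:**
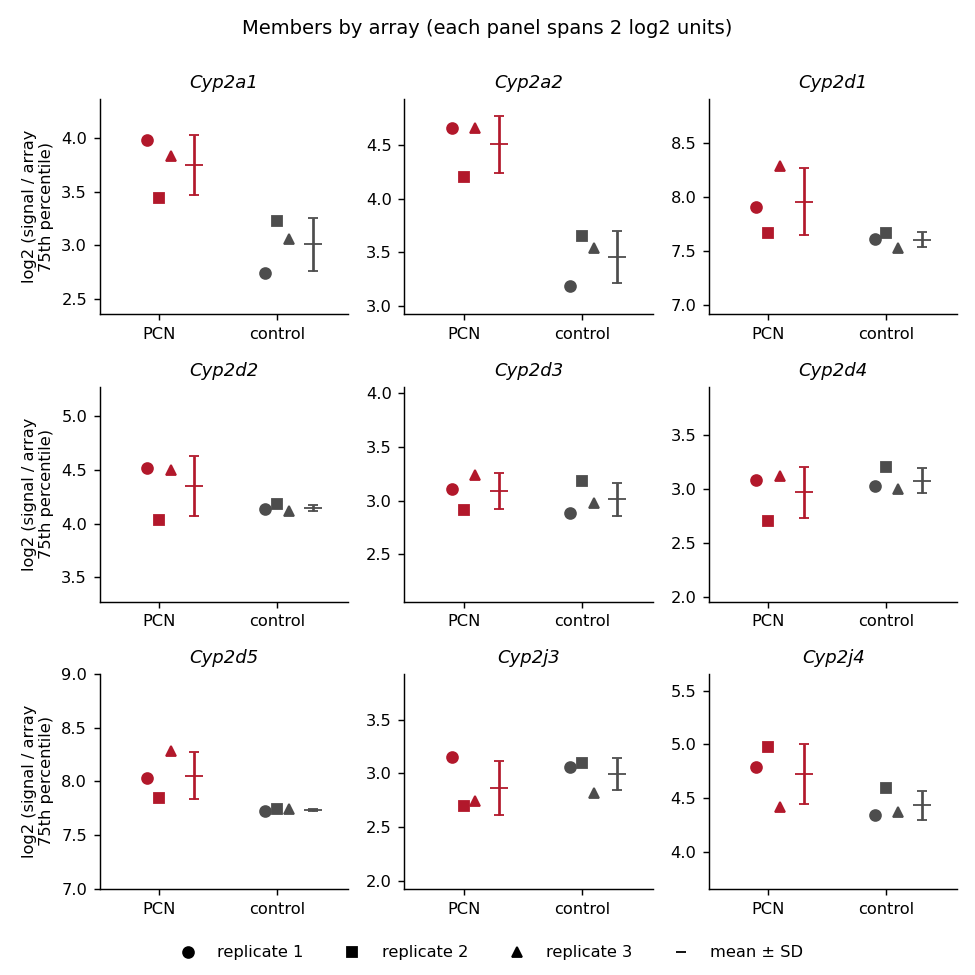
Log2 signal of each member on each array, relative to the array's 75th percentile, with PCN arrays on the left, control arrays on the right and the mean ± SD of 3 arrays beside the points. Cyp2a1 and Cyp2a2 lie higher on all 3 PCN arrays than on any control array, as does Cyp2d5, whose controls span only 7.72 to 7.74.

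Cyp2a2, a steroid hydroxylase of adult male rat liver, had log2 signals of 4.66, 4.20 and 4.66 on PCN arrays 1 to 3, against 3.19, 3.65 and 3.54 on control arrays 1 to 3. The lowest PCN array lay above the highest control array, so the groups did not overlap. On the linear scale this was 18.4 to 25.3 times the array's 75th percentile in PCN livers and 9.10 to 12.6 times in control livers. The log2 fold change was 1.05 ± 0.18 (SE, n = 3 per group, limma adjusted p = 0.0105), with a 95% interval from 0.62 to 1.48. Of all tested genes 0.830% had a higher log2 fold change. The call held under each of the 20 alternative settings tried, with a change between 0.80 and 1.26 and an adjusted p of at most 0.0431. These settings are not independent checks. The Cyp2a2 estimate stayed at 1.05 in those that change only filters, outlier spots, probes, the intensity trend or the block, and on the deposited table.

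The Cyp2a2 probe is printed 10 times on each array, which shows the spread between spots directly (spots marked as outliers, left out elsewhere, are included here). On PCN arrays 1, 2 and 3 the 10 spots spanned 4.63 to 4.75, 4.13 to 4.29 and 4.59 to 4.77 on the log2 scale. On control arrays 1, 2 and 3 they spanned 3.13 to 3.33, 3.56 to 3.72 and 3.44 to 3.62. The SD over spots of 1 array was at most 0.06, against an SD over arrays of 0.26 in the PCN group and 0.24 in the control group. Each of the 10 printed copies taken alone gave a log2 fold change between 0.97 and 1.13. These copies share the labelled RNA and the array, so they show only the spread between spots.

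**Figure D2:**
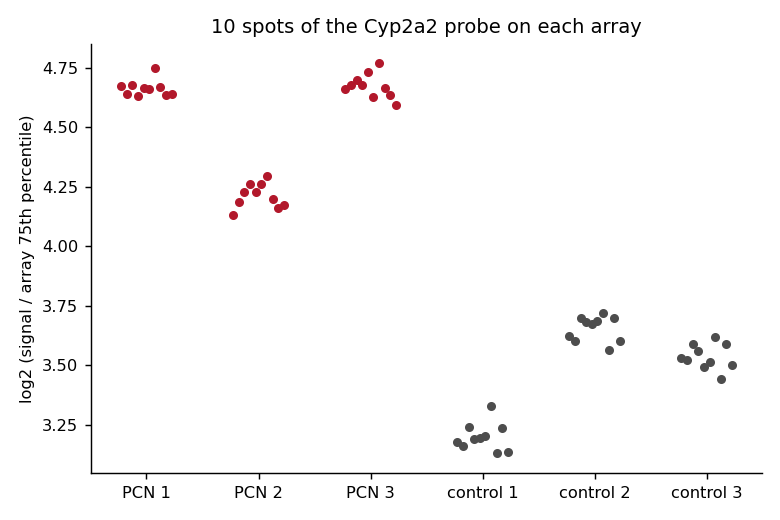
Log2 signal, relative to the array's 75th percentile, at each of the 10 printed copies of the Cyp2a2 probe, with the 3 PCN arrays on the left and the 3 control arrays on the right. The copies of 1 array lie close together, and all copies on PCN arrays (4.13 and above) lie above all copies on control arrays (3.72 and below).

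Cyp2a1, a testosterone hydroxylase that is female-biased in adult rats, had log2 signals of 3.98, 3.44 and 3.83 on PCN arrays 1 to 3, against 2.74, 3.23 and 3.06 on control arrays 1 to 3. The groups did not overlap, with PCN array 2 and control array 2 closest together. The log2 fold change was 0.74 ± 0.19 (SE, n = 3 per group, limma adjusted p = 0.0362), with a 95% interval from 0.29 to 1.18. This call was not stable to leaving out 1 array. It was lost without PCN replicate 1 or 3 (adjusted p = 0.0925 and 0.0927) and without control replicate 1 or 3 (0.102 and 0.0870). It was also lost with quantile normalization (adjusted p = 0.0514) and with scaling to spike-in controls (0.0852), and the direction was upward in all 20 alternatives (0.49 to 0.94).

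Cyp2a1 and Cyp2a2 are neighbouring genes, and their array-to-array patterns ran alike. PCN array 2 was the lowest PCN array and control array 1 the lowest control array for both, and control array 2 was the highest control array for both. This order is not particular to the pair. Cyp2d3 had it too, and PCN array 2 was the lowest PCN array for 8 of 9 members. The centred profiles of Cyp2a1 and Cyp2a2 over the 6 arrays differed by 0.16 log2 units (root mean square). Cyp2a1 changed by 0.31 less than Cyp2a2, measured within each array, and the within-array differences of the groups did not overlap. An exact two-sided permutation test of that difference gave p = 0.10, the smallest that 3 against 3 arrays allow. Related transcripts can share signal at 1 probe, and how specific each probe is was not tested, since no probe sequence was used here.

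The genes whose profile came closest to Cyp2a2 among 10044 tested genes with a symbol were Thrb, a thyroid hormone receptor, Spa17 and the scaffold protein Nherf1. Their root mean square differences over the 6 arrays were 0.10, 0.11 and 0.15 log2 units, and their own log2 fold changes were 0.88 ± 0.15, 0.98 ± 0.16 and 1.09 ± 0.17 (SE; limma adjusted p = 0.0108, 7.80e-03 and 7.71e-03). Closest to Cyp2a1 were Tmem176b, Morn2 and Ust5r, each at 0.08 log2 units. Their changes were 0.60 ± 0.17, 0.70 ± 0.17 and 0.64 ± 0.14 (SE; limma adjusted p = 0.0561, 0.0338 and 0.0243). The calls of Morn2 and Ust5r were lost in 5 and 4 of the 6 fits that leave out 1 array, namely without PCN replicate 1, 2 (Morn2 only) or 3 or control replicate 1 or 3. All of these genes were picked for profiles that span both PCN and control arrays. A change close to that of Cyp2a1 or Cyp2a2 thus follows from the choice and is no separate result.

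The start of Cyp2a1 is shown because it is the induced member whose promoter was at hand. RefSeq gives it on GRCr8 at chr1:91359028-91359327, plus strand, from 250 bases before to 50 bases after the annotated start. No sequence was printed for Cyp2a2. In the letters below, 5′ to 3′, capitals mark TATAAA, the core of the TATA box, whose first base lies 36 bases before the start.
Cyp2a1: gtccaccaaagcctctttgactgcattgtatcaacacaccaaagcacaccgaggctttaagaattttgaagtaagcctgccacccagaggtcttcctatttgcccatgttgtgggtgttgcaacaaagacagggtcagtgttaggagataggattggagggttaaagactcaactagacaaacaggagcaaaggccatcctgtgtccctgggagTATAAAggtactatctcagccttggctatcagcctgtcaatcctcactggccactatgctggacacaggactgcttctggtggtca
Of 33469 rat promoters of the same length, 14.2% hold TATAAA on either strand. The hexamers AGGTCA and AGTTCA, half-sites to which nuclear receptors bind, were searched on both strands. Neither occurs in this Cyp2a1 window, and they occur in 16.2% and 14.5% of all promoters. The motif TTCNNNGAA, the core of STAT5 sites, is also not among these letters and occurs in 8.87% of all promoters.

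The Cyp2d genes gave no call, and their estimates ordered them from Cyp2d1 and Cyp2d5 through Cyp2d2 and Cyp2d3 to Cyp2d4. Cyp2d5 came closest to the threshold. It had log2 signals of 8.03, 7.85 and 8.28 on PCN arrays 1 to 3, against 7.72, 7.74 and 7.74 on control arrays 1 to 3. All 3 PCN arrays lay above all 3 control arrays, and the control arrays differed from each other far less than the PCN arrays (SD 0.01 and 0.21). The log2 fold change was 0.32 ± 0.13 (SE, n = 3 per group, limma adjusted p = 0.130; unadjusted p = 0.0425), with a 95% interval from 0.01 to 0.63. In all, groups that did not overlap were seen in 3 of 9 members, Cyp2a1, Cyp2a2 and Cyp2d5, each higher with PCN, against 14.7% of all tested genes that lay wholly higher, 26.7% wholly lower and 41.4% wholly apart in either direction.

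Cyp2d1, a debrisoquine hydroxylase, had log2 signals of 7.91, 7.67 and 8.29 on PCN arrays 1 to 3, against 7.61, 7.67 and 7.53 on control arrays 1 to 3. PCN array 2 fell within the control range and the other PCN arrays lay above it. PCN minus control gave 0.35 ± 0.17 (SE, n = 3 per group, limma adjusted p = 0.194), with a 95% interval from −0.05 to 0.74. Cyp2d1 and Cyp2d5 differed in change by 0.03, within the spread of the within-array differences (SD 0.10 on PCN arrays and 0.08 on control arrays). Whether transcripts of either gene bind the probe of the other was not tested. Both passed the test under 1 of 20 alternatives, median scaling (adjusted p = 0.0461 for Cyp2d1 and 0.0279 for Cyp2d5). That scaling moved the median of all tested genes to 0.14. With spike-in scaling, which moved it to −0.31, the changes were 0.10 for Cyp2d1 (adjusted p = 0.641) and 0.07 for Cyp2d5 (0.682). Without PCN replicate 3 they were 0.18 and 0.21 (adjusted p = 0.406 and 0.290).

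Cyp2d2, also a debrisoquine and bufuralol oxidase, had log2 signals of 4.52, 4.03 and 4.50 on PCN arrays 1 to 3, against 4.14, 4.18 and 4.12 on control arrays 1 to 3. Here PCN array 2 lay below all control arrays and the other 2 PCN arrays above them. The change was 0.20 ± 0.15 (SE, limma adjusted p = 0.393), with a 95% interval from −0.16 to 0.56. Without PCN replicate 1, 2 or 3 it was 0.12, 0.36 or 0.13 (adjusted p = 0.668, 0.0580 and 0.666).

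Cyp2d3 had log2 signals of 3.11, 2.91 and 3.24 in PCN livers, against 2.88, 3.18 and 2.98 in control livers. The groups were interleaved, and the log2 fold change of 0.07 ± 0.13 (SE, limma adjusted p = 0.750) had a 95% interval from −0.24 to 0.38. Cyp2d4, a member that is also known from rat brain, had log2 signals of 3.09, 2.70 and 3.12 in PCN livers, against 3.03, 3.21 and 3.00 in control livers. Its log2 fold change was −0.11 ± 0.14 (SE, limma adjusted p = 0.623), with a 95% interval from −0.46 to 0.23. In linear signal these intervals, which hold for the main scaling only, span 0.844-fold to 1.30-fold (Cyp2d3) and 0.727-fold to 1.17-fold (Cyp2d4). Over the 20 alternatives the log2 estimates ranged from −0.18 to 0.28 (Cyp2d3) and from −0.36 to 0.09 (Cyp2d4). Larger changes are therefore not left out.

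**Figure D3:**
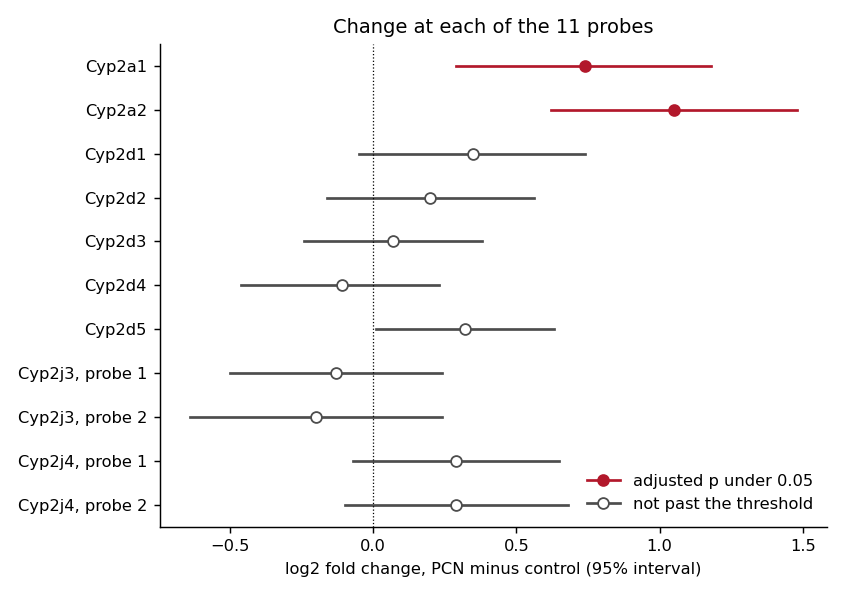
Log2 fold change, PCN minus control, with its 95% interval at each of the 11 probes, in which filled red points passed the adjusted p threshold and open points did not. The Cyp2a1 and Cyp2a2 intervals (0.29 to 1.18 and 0.62 to 1.48) lie above 0, and the paired probes of Cyp2j3 and of Cyp2j4 give like changes.

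The promoters of Cyp2d1, Cyp2d3 and Cyp2d5 are shown together because these neighbours share most of their sequence there. Their changes were 0.35, 0.07 and 0.32, and none was called. Measured within arrays, Cyp2d3 changed by 0.28 less than Cyp2d1 and by 0.25 less than Cyp2d5, and in both pairs the groups did not overlap. The exact two-sided permutation test gave p = 0.10 for each. That is the smallest that 3 against 3 arrays allow, so this test could not establish a difference in change. RefSeq gives the windows on GRCr8, all on the minus strand, at chr7:115793381-115793680 (Cyp2d1), chr7:115802093-115802392 (Cyp2d3) and chr7:115784438-115784737 (Cyp2d5). Capitals mark TTTATA, which is TATAAA read on the opposite strand.
Cyp2d1: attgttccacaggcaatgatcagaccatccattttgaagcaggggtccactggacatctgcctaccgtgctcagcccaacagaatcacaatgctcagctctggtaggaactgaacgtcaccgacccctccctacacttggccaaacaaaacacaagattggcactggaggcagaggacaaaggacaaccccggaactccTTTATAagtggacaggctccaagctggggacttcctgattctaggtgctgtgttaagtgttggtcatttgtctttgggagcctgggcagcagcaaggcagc
Cyp2d3: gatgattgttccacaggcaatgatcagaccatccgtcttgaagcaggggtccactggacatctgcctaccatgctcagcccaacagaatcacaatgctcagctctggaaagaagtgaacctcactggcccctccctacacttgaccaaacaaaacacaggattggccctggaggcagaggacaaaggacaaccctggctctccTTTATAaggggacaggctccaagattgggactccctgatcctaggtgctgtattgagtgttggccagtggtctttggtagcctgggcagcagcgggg
Cyp2d5: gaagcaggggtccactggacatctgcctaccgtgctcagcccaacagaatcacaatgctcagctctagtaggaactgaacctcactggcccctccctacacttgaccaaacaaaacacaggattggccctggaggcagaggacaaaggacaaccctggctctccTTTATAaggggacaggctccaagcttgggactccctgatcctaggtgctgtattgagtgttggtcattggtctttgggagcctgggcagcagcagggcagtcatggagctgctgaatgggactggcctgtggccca
Local alignment found 251 identical positions in 261 aligned columns between Cyp2d3 and Cyp2d5 (96.2%), 93.2% identity between Cyp2d1 and Cyp2d5 over 264 columns, and 91.1% between Cyp2d1 and Cyp2d3 over 292 columns. The match to TATAAA begins 51, 47 and 86 bases before the annotated start of Cyp2d1, Cyp2d3 and Cyp2d5. Neither nuclear receptor hexamer nor the STAT5 motif occurs in these 3 windows. None of the matches overlaps another motif searched.

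Within the Cyp2d subfamily Cyp2d4 had the lowest estimate. Cyp2d4 changed by 0.46 less than Cyp2d1, 0.44 less than Cyp2d5, 0.32 less than Cyp2d2 and 0.18 less than Cyp2d3, measured within each array. In each of these 4 pairs the within-array differences on PCN arrays lay wholly apart from those on control arrays. Over the 12 pairs of members of 1 subfamily the groups lay apart in 8, against 43.5% of all pairs of tested genes. For those 8 the exact two-sided permutation test gave p = 0.10, the smallest possible, and 0.150 after Benjamini-Hochberg adjustment over the 12 pairs, so none passed, and none could pass by this test with 3 arrays per group. The pairs share arrays and members and are not independent.

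Cyp2j4, an arachidonic acid epoxygenase that in rat is also abundant in small intestine, had log2 signals of 4.79, 4.97 and 4.42 on PCN arrays 1 to 3 at its brighter probe, against 4.34, 4.59 and 4.37 on control arrays 1 to 3. PCN array 3 lay within the control range. The change was 0.29 ± 0.16 (SE, n = 3 per group, limma adjusted p = 0.258), with a 95% interval from −0.10 to 0.68. Its other probe had 2.42, 2.32 and 2.03 in PCN livers, against 1.77, 2.15 and 1.98 in control livers, and gave a change of 0.29 ± 0.15 (limma adjusted p = 0.232 over all tested probes). The probes thus gave the same estimate although their signals differ.

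Cyp2j3, the epoxygenase of rat liver and heart, had log2 signals of 3.15, 2.70 and 2.74 on PCN arrays 1 to 3 at its brighter probe, against 3.06, 3.10 and 2.82 on control arrays 1 to 3. The log2 fold change was −0.13 ± 0.15 (SE, limma adjusted p = 0.604), with a 95% interval from −0.50 to 0.24. Its other probe had 1.66, 1.02 and 1.21 in PCN livers, against 1.48, 1.65 and 1.35 in control livers, with a change of −0.20 ± 0.18 (limma adjusted p = 0.496 over all tested probes). At both Cyp2j3 probes PCN array 1 was the highest of the 3 PCN arrays. Cyp2j3 changed by 0.42 less than Cyp2j4 within arrays, and the groups of that difference did not overlap (exact permutation p = 0.10, the smallest possible). The motif search found AGTTCA 35 bases before the annotated start of Cyp2j3 and 219 bases before that of Cyp2j4. In the Cyp2j4 window TTCNNNGAA also begins 160 bases before the start. Of all promoters 14.5% hold AGTTCA and 8.87% hold TTCNNNGAA, and binding at these letters was not tested.

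**Figure D4:**
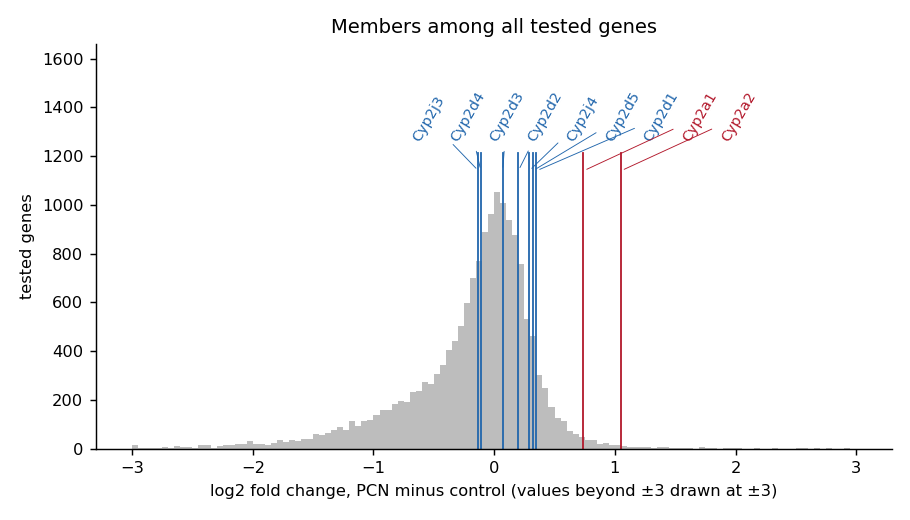
Histogram of the log2 fold change, PCN minus control, of all 16389 tested genes (grey; the y axis counts genes), with a line at each member, red for those past the threshold and blue for the others. Cyp2a1 and Cyp2a2 lie in the upper tail, with 1.73% and 0.830% of tested genes above them. The 7 Cyp2d and Cyp2j genes lie further in, with 8.55% (Cyp2d1) to 56.6% (Cyp2j3) of tested genes above them.

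Set against each other as subfamilies, a comparison chosen after the values were seen, the mean log2 fold change was 0.89 over the Cyp2a genes, 0.17 over the Cyp2d genes and 0.08 over the Cyp2j genes. Within arrays, the Cyp2a mean changed by 0.73 more than the Cyp2d mean and by 0.81 more than the Cyp2j mean, and in both cases the groups did not overlap. The exact two-sided permutation test gave p = 0.10 for each, the smallest possible, and 0.150 adjusted over the 3 comparisons. The Cyp2d and Cyp2j means differed in change by 0.08, with overlapping groups (exact permutation p = 0.900).

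PCN array 2 was the lowest of the 3 PCN arrays for 8 of 9 members, all but Cyp2j4, against 45.3% of all tested genes. The same array was the lowest PCN array for 10 of 10 hepatocyte markers and for 2 of 8 PXR response genes. The mean log2 signal of the 10 hepatocyte markers was 6.56, 6.11 and 6.62 on PCN arrays 1 to 3, and 6.31, 6.47 and 6.41 on control arrays 1 to 3. Cps1 (1.45, −0.18 and 1.04 on PCN arrays 1 to 3) and Ass1 (5.95, 4.70 and 5.73) dipped most on PCN array 2. Another marker, Hnf4a, was itself called higher with PCN (0.63 ± 0.13, SE, limma adjusted p = 0.0160). In whole liver, fewer cells of a type and less RNA per cell cannot be told apart. With each array scaled to the mean of all 10 markers, an alternative chosen after seeing the data, Cyp2a2 gave 1.02 and Cyp2a1 0.70 (limma adjusted p = 4.18e-03 and 0.0256), and no Cyp2d or Cyp2j gene passed. Without PCN replicate 2 the 9 members had a median of 0.36 and both Cyp2a genes were called, and without PCN replicate 3 it was 0.18 and only Cyp2a2 was called.

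Markers of other liver cells were read beside these results, with 4.37% of all tested genes higher and 15.5% lower. None of the 9 Kupffer cell markers tested was called. Their median log2 fold change was −0.40, and their summed signal was 26.3 to 40.6 times the 75th percentile on PCN arrays and 38.9 to 45.9 times on control arrays. Stellate cell markers summed to 12.8 to 15.1 times on PCN arrays and 14.0 to 15.0 times on control arrays, with 1 of 9 higher and 2 lower. Endothelial markers summed to 23.1 to 26.4 times and 24.3 to 26.8 times in the same order, with 1 of 5 lower. Cholangiocyte, T cell and kidney tubule markers each summed to under 1 on every array, with 0 of 4, 2 of 4 and 2 of 2 tested members lower and Cd2 and Slc34a1 not well above background on any array. Lck, a T cell marker called lower, passed the background mark on 1 of 3 PCN arrays and 3 of 3 control arrays, so it was tested only through the group in which it was higher. The part of any of these in the P450 results was not tested.

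The neighbours of the 3 gene clusters were read from the gene order in GRCr8, taking 5 protein-coding genes on each side. For comparison, 19.9% of all tested genes passed in either direction. Next to Cyp2a2 on chromosome 1 lies Cyp2f4, at 0.45 ± 0.18 (SE, limma adjusted p = 0.123), and 0 of 4 tested neighbours of the Cyp2a pair passed. These 4 all lie on the Cyp2a2 side. None of the 5 genes on the Cyp2a1 side (Cyp2b12, Cyp2b14, Cyp2b15, Cyp2g1 and Cyp2a3) was tested, so that side is not described. Of 5 tested neighbours of the Cyp2d cluster on chromosome 7, Rrp7a passed, at 0.34 ± 0.09 (limma adjusted p = 0.0426), a call lost without any 1 of the 6 arrays. Of 4 tested neighbours of the Cyp2j pair on chromosome 5, 0 passed.

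Genes that act with these enzymes were read from the same fit, in which 4.37% of all tested genes rose and 15.5% fell. All 8 tested PXR response genes rose, with a median log2 fold change of 2.87, and Cyp3a23-3a1, Slco1a4 and Cyp3a9 changed most (4.31, 3.41 and 3.21). The change of Cyp2a2 lay between those of the 2 least changed of these genes, the P450 Cyp3a2 (0.89) and the drug efflux pump Abcb1a (1.40). Among 5 tested CYP2 genes outside the Cyp2a, Cyp2b, Cyp2c, Cyp2d and Cyp2j groups 0 rose and 1 fell, the vitamin D 25-hydroxylase Cyp2r1 (by 0.78 ± 0.10, limma adjusted p = 3.66e-03). Of 17 redox and heme partners 6 rose and 1 fell, with a median of 0.18. Por, the reductase that feeds electrons to these P450s, rose by 1.21 ± 0.13, Alas1, the first enzyme of heme synthesis, by 1.44 ± 0.39 and Blvrb, a biliverdin reductase, by 1.18 ± 0.10 (SE; limma adjusted p = 2.20e-03, 0.0437 and 1.04e-03). The electron donor Cyb5a, named after its value was seen, rose by 0.93 ± 0.11 (limma adjusted p = 2.69e-03), and the member that fell, Pgrmc2, likewise, by 0.42 ± 0.11 (0.0430), a call lost without any 1 of the 6 arrays. The Alas1 call was lost without PCN replicate 2 or 3 or any 1 control replicate (adjusted p up to 0.127).

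In the arachidonic acid pathway that the Cyp2j genes belong to, 2 of 18 tested genes rose and 2 fell, with a median of −0.10. The shares over all tested genes were 4.37% higher and 15.5% lower. The microsomal epoxide hydrolase Ephx1 rose by 1.64 ± 0.27 and the phospholipase Pla2g6 by 0.82 ± 0.14, and the fatty acid hydroxylase Cyp4a8 fell by 0.92 ± 0.17 (SE; limma adjusted p = 8.92e-03, 0.0106 and 0.0129). Ephx2, the soluble epoxide hydrolase, gave −0.47 ± 0.14 (limma adjusted p = 0.0545) and was named after its value was seen.

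Sex-biased genes and their regulators moved in both directions, where 4.37% of all tested genes rose and 15.5% fell. Of 10 tested male-biased genes 3 rose and 0 fell, Cyp2a2, Cyp3a18 (by 3.10 ± 0.15) and Cyp3a2 (by 0.89 ± 0.10), with a median of 0.35. Cyp3a18 and Cyp3a2 were also counted among the PXR response genes, so besides the member Cyp2a2 no further male-biased gene rose. Of 9 tested female-biased genes 5 rose and 2 fell, with a median of 0.74. Besides Cyp2a1, these rises include Sult2a2 (by 4.84 ± 0.71), Sult2a6 (by 2.34 ± 0.34) and Cyp2c12 (by 1.63 ± 0.42, limma adjusted p = 0.0382), which was not called without PCN replicate 1 or 2 or any 1 control replicate. The lists overlap here too. Cyp3a9, the remaining female-biased gene that rose, was also counted among the PXR response genes, and the fall of Prlr is counted again below. Cyp2a1 and Cyp2a2, whose sex bias in adults is opposite, both rose. Only males were sampled, so sex bias was not measured here, and how specific the probe of each gene is was not tested. Of 12 growth hormone signalling genes 0 rose and 4 fell, with a median of −0.49. Prlr, the prolactin receptor, fell by 1.45 ± 0.26, Cish, an inhibitor of STAT5 signalling, by 0.78 ± 0.16 and Igfals, the carrier subunit of IGF complexes, by 0.76 ± 0.21 (SE; limma adjusted p = 0.0111, 0.0192 and 0.0444). Of these, Igfals was not called without PCN replicate 2 or 3 or any 1 control replicate, and Cish without PCN replicate 2 or 3 or control replicate 1 or 2.

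Among 19 transcription factors of liver P450 genes 2 rose and 1 fell, with a median of 0.01, against 4.37% and 15.5% of all tested genes. Hnf4a, which activates many liver P450 genes, rose by 0.63 ± 0.13 and Arnt, the partner of the dioxin receptor, by 0.68 ± 0.18 at a dim probe, and the repressor Nr0b2 fell by 1.66 ± 0.44 (SE; limma adjusted p = 0.0160, 0.0422 and 0.0425). Leaving out control replicate 3 ended the Hnf4a call. The Arnt probe passed the background mark on 3 of 3 PCN arrays and 2 of 3 control arrays, so it was tested only through the group in which it was higher and its call supports nothing here. That call ended without PCN replicate 1 or 3 or any 1 control replicate, and the Nr0b2 call without PCN replicate 1 or 2 or control replicate 1 or 3. Of the list genes named, Hnf4a, Arnt, Cyp2c12 and Pla2g6 were not called with spike-in scaling, Nr0b2, Igfals and Pgrmc2 not with median scaling, and Arnt and Cish not with normexp background correction. Alas1, Nr0b2 and Igfals were not called on the deposited table, Alas1, Nr0b2, Arnt and Cyp2c12 not with an intensity trend, Cish not with the mean over probes, and Hnf4a and Pgrmc2 not with hepatocyte marker scaling. Further losses came with no filter on dim probes and with the replicate block.

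**Figure D5:**
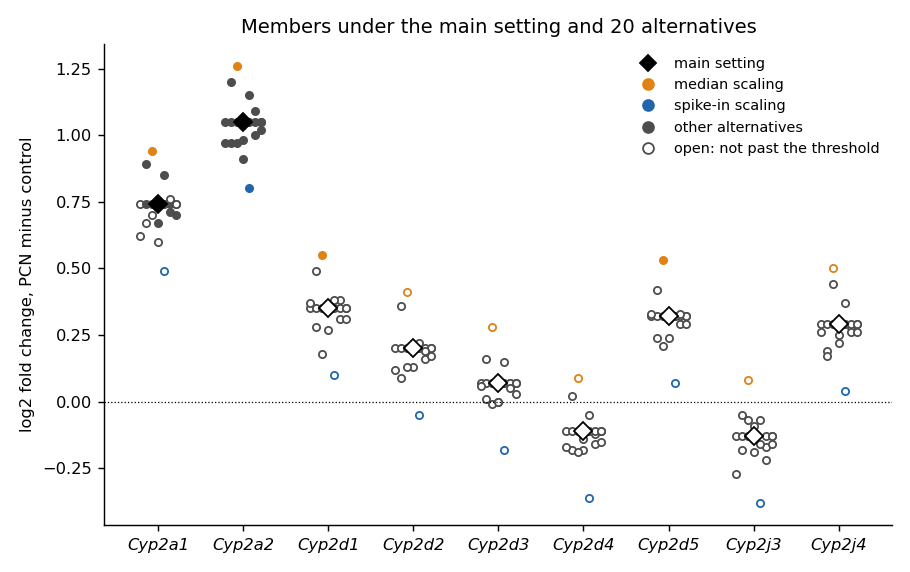
Log2 fold change, PCN minus control, of each member under the main setting (diamonds) and 20 alternatives (circles), filled where the adjusted p was under 0.05. Cyp2a2 is filled throughout (0.80 to 1.26), Cyp2a1 in 12 of 20 alternatives, Cyp2d1 and Cyp2d5 in 1 each, and the other members in none.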

How the data were processed

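Total RNA (100 ng) of 6 rat liver samples was labelled with Cy3 per the labels' protocols. Per the file headers, each deposited intensity is a processed signal from Agilent Feature Extraction 10.7.3.1, background-subtracted within its array and not scaled between arrays. Other columns give quality marks of 0 or 1 for each spot, as deposited. The authors also deposited a table whose values are, from a comparison with the scanner signals, a linear ratio of processed signal to the 75th percentile of each array, with no centring of genes; no label states this unit. The correlation was 1.00000 on the log scale where the value was 1 or more. Its columns had medians of 0.08 on PCN arrays and 0.09 on control arrays.

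In R 4.3.3, log2 processed signal was taken minus each array's 75th percentile over non-control spots. Control spots and outlier spots were left out, and spots of 1 probe were averaged. Testing was limited to probes marked as well above background, by a share of 0.5 or more of their spots, on every array of the PCN group, of the control group or of both. The brightest of these stood for its gene. Symbols came from RefSeq (GRCr8), which named 18004 of 30367 probes. The files name the build rn4, so no gene coordinates are given beyond the RefSeq promoter windows. Groups were compared with limma 3.58.1 (two-sided, no covariate), tested on simulated data. Promoters, given for 8 of 9 members, were aligned with Biopython 1.88.

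The genes named are all members, in each list up to 3 called genes by size of change, and the 3 nearest profiles of each called member. The members, lists and tests were chosen with earlier results of these data known. Where the design asked for mean spot signals in the normexp alternative, median signals were used, since the files hold those. The labels number biological replicates within each group and do not say whether livers were pooled, and 3 arrays per group limit the precision. The alternatives were 4 scalings, normexp, the deposited table, 2 filters on dim probes, outlier spots kept, 2 ways of treating several probes, an intensity trend, the replicate number as a block, each array left out, and scaling to hepatocyte markers.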

Additional observations from a re-analysis of the deposited data

How the results depend on the processing

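Cyp2a2 kept its direction and its call in all 20 alternatives, which are not independent, since several leave its estimate at the main value of 1.05. Cyp2a1 kept its direction in all 20 and its call in 12. It was not called with quantile normalization (0.67, adjusted p = 0.0514), spike-in scaling (0.49, 0.0852), no filter on dim probes (0.74, 0.0887) or the replicate block (0.74, 0.103), and ranged from 0.60 to 0.89 with 1 array left out. Members called numbered 1 in each of those 4 settings, 4 with median scaling, and 1 to 2 with 1 array left out. Median scaling called Cyp2d1 (0.55) and Cyp2d5 (0.53) and turned Cyp2d4 to 0.09 and Cyp2j3 to 0.08. Spike-in scaling turned Cyp2d2 to −0.05 and Cyp2d3 to −0.18. Cyp2d4 turned to 0.02 without PCN replicate 2 (range −0.19 to 0.02 with 1 array left out) and Cyp2d3 to −0.01 without PCN replicate 3 (range −0.01 to 0.16). None of these turned values was called, and the cause of the changes was not tested. The median of all tested genes was −0.06, 0.14 with median scaling and −0.31 with spike-in scaling, and the share of lower genes among those called was 78.1%, 41.0% and 96.4%. That share was 65.9% with quantile normalization, 64.4% with normexp and 91.7% with hepatocyte marker scaling.

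Over all genes 3263 passed, against 1967 with no filter on dim probes (26902 genes tested), 2067 with the replicate block and 2023 to 2592 with 1 array left out. Genes called over the pathway lists were 21 with no filter, 21 with the replicate block and 21 to 29 with 1 array left out. Over all genes, deviations of same-numbered arrays correlated at −0.10, −0.03 and −0.05, which gave no sign that replicate numbers pair the samples. Pairing that touches only some genes was not tested, and neither was the reason why calls were lost under the block. Pairs of members whose groups lay apart numbered 8 at the main setting. Slide cannot be separated from treatment by any setting.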
